A study of Mus musculus with 8 samples.

Results

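Kinesins are motor proteins that use ATP to walk along microtubules or to take them apart. One group of them builds and moves the mitotic spindle and closes the cell at division, and is made mainly by dividing cells. The others carry vesicles, mitochondria and messenger RNA, build cilia or set microtubule length, and several of them are best known from neurons. Microglia, the resident macrophages of the brain, still divide during the first weeks after birth in the mouse, and LPS (lipopolysaccharide, from the outer membrane of Gram-negative bacteria) is a standard agent to provoke an innate immune response.

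Kinesin genes were examined in CD11b+ cells, brain cells that carry the alpha M integrin of microglia and related myeloid cells, taken from male C57BL/6N mice 24 h after LPS (4 tubes) or saline (4 tubes). The mice were labelled as 7 days old, no genetic alteration was listed, and the dose and route of LPS are not given in the sources used here. Each tube pooled the brains of 2 mice, cells were captured with magnetic beads, and the RNA of each tube was hybridised to 1 single-colour Agilent array. All probes that are not controls and whose gene name begins with Kif and a digit were taken, which gave 96 probes of 40 gene names, out of 56599 usable probes of 36608 gene names. Of these 40 names, 11 belonged to mitotic kinesins and 27 to other kinesins. The remaining 2, the pseudogene Kif4-ps and the antisense RNA Kif16bos, are not motor genes, and their probes were not well above background on any array. Kif2b was not well above background on any array either, so that 37 kinesins were tested, all 11 mitotic ones and 26 of the other 27.

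The value used throughout is the relative log2 signal, the log2 of a probe's processed signal minus the 75th percentile of its array, and a change is the LPS mean minus the saline mean ± standard error with 4 arrays per group. Each gene is read from its brightest probe, and levels of different genes are not comparable. Between 58.6% and 63.2% of probes were well above background on the LPS arrays, against 61.9% to 66.0% on the saline arrays, and no spot was saturated. Across all 22509 genes tested with limma, 11104 changed at an adjusted p under 0.05, and 56.4% of those were higher in LPS (72.8% when each array was scaled to its median, 40.1% when the percentile was taken only over probes detected everywhere). Itgam, which encodes CD11b, was well above background on 8 of 8 arrays, as were markers of cells that the beads should leave behind, such as the neuronal gene Rbfox3 and the astrocyte gene Aqp4.

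All 11 mitotic kinesins rose after LPS, and on every one of them the 4 LPS arrays lay above the 4 saline arrays. For comparison, 27.8% of all genes tested were called higher, and in 44.7% of them the groups did not overlap. The median change of the 11 genes was 0.89, a 1.85-fold increase, against a median of 0.02 over all genes. Changes ran between 0.62 for Kif23 and 1.46 for Kif2c, and 2 genes, Kif2c and Kif20a, passed 2-fold, as 3.58% of all genes did in that direction. The 11 genes lie on 9 chromosomes. In bulk cells a larger share of dividing cells and more RNA per dividing cell cannot be told apart.

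**Figure D1:**
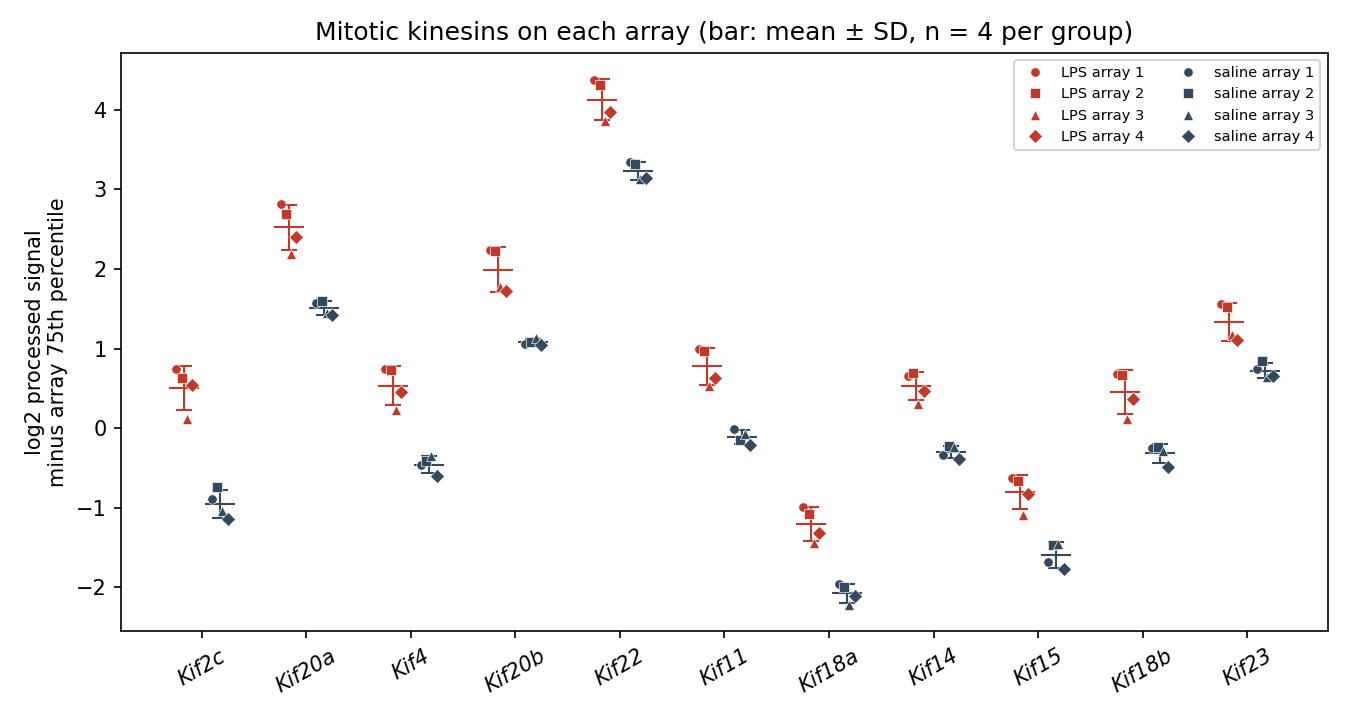
Relative log2 signal (log2 processed signal minus the array's 75th percentile) of the 11 mitotic kinesins on each of the 4 LPS arrays (red) and 4 saline arrays (dark blue). Horizontal bars and whiskers are mean ± SD. Within each gene no LPS array reaches down to a saline array, and LPS arrays 1 and 2 stand above LPS arrays 3 and 4.

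Of the kinesins that shorten microtubule ends, Kif2c had the largest increase of the 37 kinesins tested. Kif2c (MCAK, at chr4:117159633-117182624 of GRCm38.p6) removes tubulin at kinetochores and so releases faulty attachments. Its relative signal was 0.74, 0.63, 0.11 and 0.54 on LPS arrays 1 to 4, against -0.89, -0.74, -1.04 and -1.15 on saline arrays 1 to 4. LPS array 3 was the lowest of its group and still stood above the highest saline array. The increase was 1.46 ± 0.15, or 2.76-fold (limma, adjusted p = 0.000548). Kif18a, which walks to microtubule plus ends and keeps chromosomes at the spindle equator, read -0.99, -1.08, -1.45 and -1.32 on the LPS arrays, against -1.96, -2.002, -2.23 and -2.11 on the saline arrays. Its groups were separate, and it rose by 0.87 ± 0.12 (adjusted p = 0.00118). Its relative Kif18b shortens the astral microtubules that reach the cell cortex. Kif18b had 0.68, 0.67, 0.11 and 0.36 on the LPS arrays, against -0.25, -0.24, -0.29 and -0.49 on the saline arrays. LPS arrays 1 and 2 were nearly equal and the highest, and the increase was 0.77 ± 0.14 (adjusted p = 0.00318).

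The kinesins that build the bipolar spindle and move chromosome arms rose by between 0.79 and 0.99. Kif11 (Eg5) slides antiparallel microtubules apart so that the poles separate. Its relative signal was 0.99, 0.96, 0.53 and 0.63 on the LPS arrays, against -0.01, -0.14, -0.08 and -0.21 on the saline arrays, an increase of 0.89 ± 0.12 (adjusted p = 0.00117). Kif15 can take over part of that work. Kif15 read -0.63, -0.66, -1.09 and -0.83 on the LPS arrays, against -1.69, -1.46, -1.46 and -1.77 on the saline arrays, with an increase of 0.79 ± 0.13 (adjusted p = 0.00203). In both genes LPS array 3 was the lowest LPS array and lay above every saline array. Kif4 and Kif22 are chromokinesins, which bind chromosome arms. Kif4, which also organises the central spindle together with Prc1, had 0.74, 0.73, 0.22 and 0.45 on the LPS arrays, against -0.47, -0.42, -0.35 and -0.60 on the saline arrays. The groups did not overlap, and Kif4 rose by 0.99 ± 0.13 (adjusted p = 0.00103). Kif22 (Kid), which pushes chromosome arms away from the poles, read 4.38, 4.32, 3.86 and 3.97 on the LPS arrays, against 3.34, 3.32, 3.13 and 3.14 on the saline arrays. It rose by 0.90 ± 0.13 (adjusted p = 0.00149), again with separate groups.

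The kinesins of the central spindle and of cytokinesis, the final separation of the daughter cells, moved the same way. Kif20a (MKlp2) brings Aurkb and its partners to the central spindle. Its relative signal was 2.81, 2.69, 2.19 and 2.40 on the LPS arrays, against 1.58, 1.60, 1.45 and 1.43 on the saline arrays. The increase of 1.01 ± 0.14 corresponded to 2.02-fold (adjusted p = 0.00117), with no overlap between groups. Kif23 (MKlp1) forms the centralspindlin complex with Racgap1. Kif23 read 1.56, 1.53, 1.16 and 1.10 on the LPS arrays, against 0.75, 0.84, 0.64 and 0.65 on the saline arrays. Its increase of 0.62 ± 0.12 (adjusted p = 0.0048) was the smallest of the 11, and LPS arrays 3 and 4 were the closest to the saline arrays. Kif14 and Kif20b are both needed for cells to complete cytokinesis. Kif14 had 0.65, 0.69, 0.31 and 0.47 on the LPS arrays, against -0.34, -0.23, -0.24 and -0.40 on the saline arrays, an increase of 0.83 ± 0.10 (adjusted p = 0.000875). Kif20b had 2.24, 2.23, 1.77 and 1.72 on the LPS arrays, against 1.06, 1.08, 1.14 and 1.05 on the saline arrays, an increase of 0.91 ± 0.14 (adjusted p = 0.00151). For both, the LPS and saline arrays were separate.

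The 11 genes shared one order among the LPS tubes. In 11 of 11, LPS arrays 1 and 2 were both above LPS arrays 3 and 4, and in 9 of 11 LPS array 3 was the lowest LPS array. Taken as the median over the 11 genes of the difference from the saline mean, the LPS arrays stood at 1.10, 1.07, 0.63 and 0.76, and the saline arrays at 0.06, 0.08, 0.02 and -0.10. The standard deviation between LPS arrays had a median of 0.25 over the 11 genes, against 0.10 between saline arrays. All 11 were called higher under each of the 25 alternative settings, leaving out any 1 array included. The slide held both groups in each of its 2 rows, and within them the median change was 0.88 and 0.89, with 11 of 11 genes higher in both.

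Kinesins outside the name rule that act in mitosis, and the proteins the mitotic kinesins work with, changed in the same direction. Kifc1, a minus-end motor that bundles spindle poles, rose by 0.81 ± 0.15 (adjusted p = 0.00346), though its signal may not be separable from that of its near-identical relative Kifc5b, which rose by 0.50 ± 0.12 (adjusted p = 0.00954). Cenpe, the kinesin that carries chromosomes along spindle fibres at the kinetochore, rose by 0.86 ± 0.11 (adjusted p = 0.000982). All 34 listed mitotic partners were higher in LPS, against 27.8% of all genes, with a median of 0.92. Of the 34, 12 passed 2-fold, against 3.58% of all genes in that direction. Their groups did not overlap in 34 of 34, against 44.7% of all genes. This list was chosen with earlier results of these data known. The partners with the largest changes were the transcription factor Mybl2 at 1.52 ± 0.16, the checkpoint kinase Bub1 at 1.21 ± 0.14 and the chromosomal passenger protein Cdca8 at 1.18 ± 0.14. Among direct partners, Tpx2, which targets Aurka to the spindle, rose by 1.14 ± 0.12, Aurka by 1.03 ± 0.15, Aurkb by 0.96 ± 0.12, Racgap1 by 0.997 ± 0.13 and Prc1 by 0.72 ± 0.12. The division markers Mki67 and Top2a rose by 0.84 ± 0.11 and 1.05 ± 0.12. The partners' medians on the LPS arrays, 1.12, 1.08, 0.65 and 0.80, followed the same order as those of the mitotic kinesins, against 0.07, 0.06, -0.08 and -0.07 on the saline arrays.

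**Figure D2:**
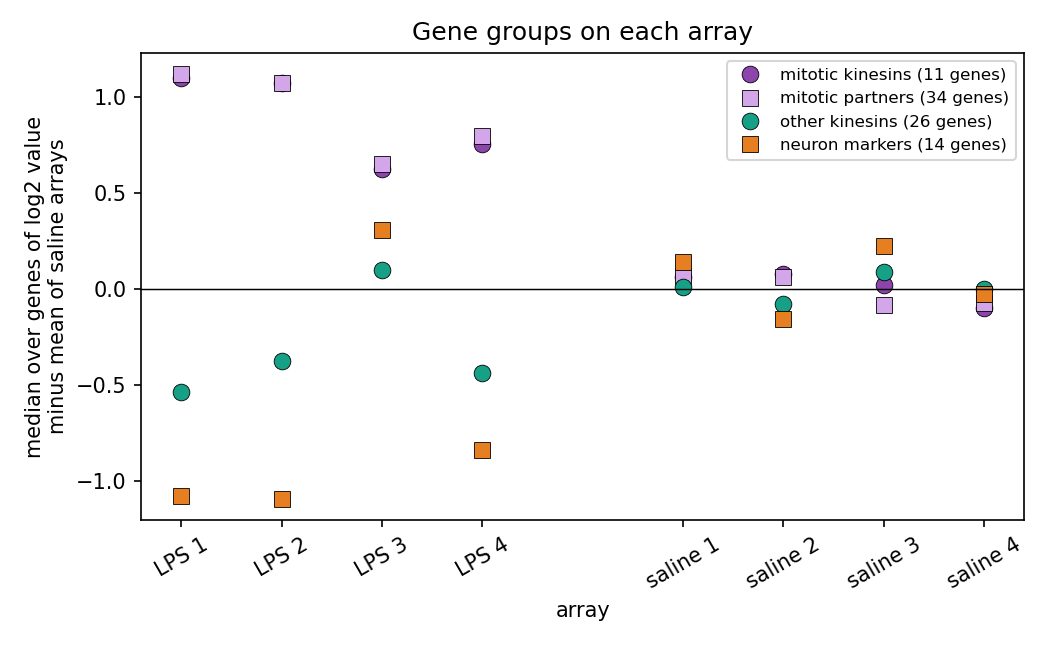
Median over the genes of each group of the relative log2 signal minus the mean of the saline arrays, for each of the 4 LPS and 4 saline arrays. Mitotic kinesins (11 genes) and mitotic partners (34 genes) are above 0.6 on every LPS array, while the other kinesins (26 genes) and the neuron markers (14 genes) are below 0 on LPS arrays 1, 2 and 4 and above 0 on LPS array 3.

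The start regions of the mitotic kinesins are shown because these genes moved together. Many genes of late cell cycle carry the CHR (cell cycle genes homology region) element, bound by the DREAM and MuvB complexes, and CCAAT boxes, bound by NF-Y. Sequences of 250 bases before to 50 bases after the annotated start were taken from RefSeq (GRCm38.p6), which gave 10 of the 11 mitotic kinesins (all but Kif20a) and 21 of the 27 others. The windows of Kif2c and Kif14 lie wholly inside the annotated genes, as do some windows of other kinesins. They do not cover the outer start of the gene, yet both are counted below, each with a CHR match. The letters TTTGAA for the CHR and CCAAT for the box were searched on both strands. TTTGAA was found in 9 of the 10 mitotic kinesins, in 3 of 25 start regions of other kinesins and in 17.9% of all 32851 start regions. CCAAT was found in 6 of the 10, in 9 of 25 and in 37.4% of all. Both together were found in 6 of the 10, in 2 of 25 and in 6.95% of all, and in the 10 mitotic kinesins no CHR site overlapped a CCAAT site. These are matches of letters, not measured sites. The 200 bases before the start are given below for 4 mitotic kinesins on the gene's strand, with matches in capitals (TTCAAA and ATTGG are the same letters read on the opposite strand), at chr19:37376182-37376381 (plus strand) for Kif11, chr9:122950881-122951080 (plus strand) for Kif15, chrX:100625865-100626064 (plus strand) for Kif4 and chr11:102925125-102925324 (minus strand) for Kif18b.
Kif11: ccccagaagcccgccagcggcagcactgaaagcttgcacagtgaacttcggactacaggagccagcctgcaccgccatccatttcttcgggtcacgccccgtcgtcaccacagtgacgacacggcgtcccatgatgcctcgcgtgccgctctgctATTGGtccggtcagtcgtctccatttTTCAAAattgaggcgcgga
Kif15: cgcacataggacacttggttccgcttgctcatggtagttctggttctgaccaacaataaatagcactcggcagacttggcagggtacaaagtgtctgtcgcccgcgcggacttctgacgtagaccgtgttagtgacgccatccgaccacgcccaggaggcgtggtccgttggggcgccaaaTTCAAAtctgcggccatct
Kif4: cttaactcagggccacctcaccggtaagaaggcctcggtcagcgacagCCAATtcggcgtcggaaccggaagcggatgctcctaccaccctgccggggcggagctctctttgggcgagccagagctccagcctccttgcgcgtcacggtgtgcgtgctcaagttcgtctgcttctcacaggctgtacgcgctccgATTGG
Kif18b: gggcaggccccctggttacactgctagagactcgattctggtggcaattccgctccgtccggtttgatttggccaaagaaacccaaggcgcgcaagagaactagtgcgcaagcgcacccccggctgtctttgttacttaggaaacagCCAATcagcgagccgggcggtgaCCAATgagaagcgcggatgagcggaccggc

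Counted from the start, with position -1 as the base before it, Kif11 had a CCAAT match on the opposite strand at -45 and a CHR match on the opposite strand at -19. Kif15 had CHR matches at -234 and -19, and only the site at -19 falls in the stretch printed above. Kif4 and Kif18b each had 2 CCAAT matches before the start and a CHR match after it, at position 20 in Kif4 and at position 4 in Kif18b. Kif18a, which rose by 0.87, held neither.

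**Figure D3:**
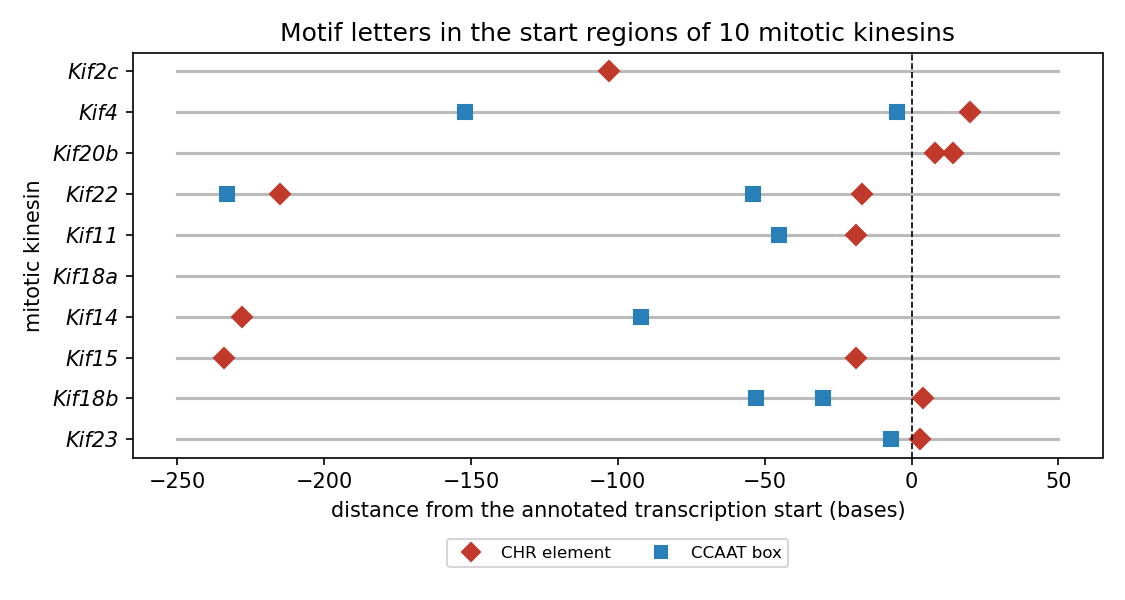
Positions of CHR letters (red diamonds) and CCAAT letters (blue squares) on either strand in the start regions of 10 mitotic kinesins, by distance in bases from the annotated transcription start (dashed line). Each grey line spans the window searched, 250 bases before to 50 bases after the start. Of the 10 genes, 9 hold a CHR match and 6 a CCAAT match. The windows of Kif2c and Kif14 lie wholly inside the annotated gene.

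Most mitotic kinesins have more than 1 probe, and the probes of annotated RefSeq transcripts moved together. Of 26 probes for these 11 genes, 23 were well above background often enough to be tested, and 20 of those were higher in LPS while none was lower, against 9115 higher among all 35494 probes tested. The other 3 were probes for transcripts known only from Ensembl, with changes of 0.24 for Kif14, 0.19 for Kif15 and 0.05 for Kif22. The 3 probes for RefSeq transcripts of Kif15 gave 0.84 ± 0.12, 0.81 ± 0.13 and 0.79 ± 0.13. Kif23 had 4 probes, all higher, with changes of 0.62 and 0.57 for its RefSeq transcript and 0.39 and 0.31 for Ensembl transcripts. The 20 include a dim probe of Kif14 that was well above background on 4 of 4 LPS arrays and on 0 of 4 saline arrays, and so could be tested only through the LPS group.

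The other kinesins were more often below 0 than above it, and calls went both ways. Of the 26 tested, 7 had a positive difference, against 11667 of all 22509 genes, and within the 2 slide rows 6 and 8 did. Of the 26, 3 rose and 6 fell, against 27.8% higher and 21.5% lower among all genes, and 17 did not pass the test. The 9 called genes compare with 49.3% of all genes called in either direction. The median change of the 26 was -0.35, with a range of -1.28 to 0.48, and none of the called genes reached 2-fold, as 5.75% of all genes did downward. The groups did not overlap in 9 of the 26, against 44.7% of all genes. The counts depended on single arrays: without LPS array 3 they became 5 higher and 15 lower, without LPS array 2, LPS array 4 or saline array 3 the number higher was 1, and without LPS array 3 and saline array 3 together the number lower was 10. Scaling each array to its median, which puts the median change of all genes at 0.24, left 1 gene lower, Kif26a, and ended the calls of Kif13a, Kif13b, Kif21b, Kif28 and Kif3a.

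**Figure D4:**
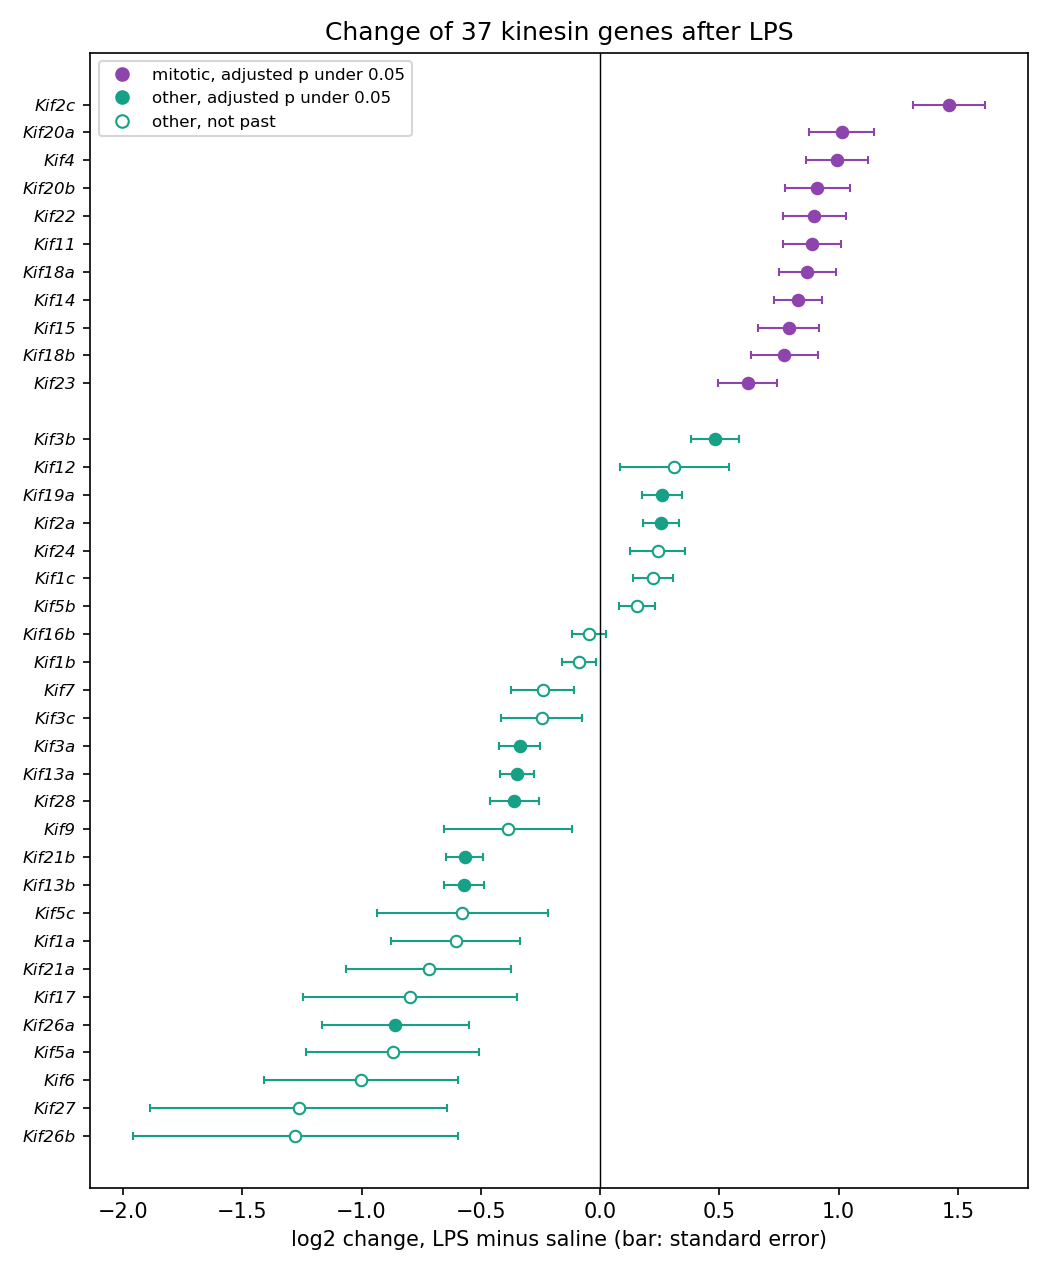
Log2 change (LPS minus saline) with its standard error for the 37 kinesins tested, mitotic ones in purple and others in green, filled where the adjusted p was under 0.05. The 11 mitotic kinesins all lie at 0.62 or above, while the 26 others spread between -1.28 and 0.48 and have wider errors toward the low end.

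The 6 that fell included motors of endosomes and membrane cargo and regulators of microtubule growth. Kif13b (GAKIN), a transporter of membrane proteins and signalling scaffolds, read 2.22, 2.23, 2.40 and 2.28 on the LPS arrays, against 2.94, 2.86, 2.69 and 2.92 on the saline arrays. Every LPS array was below every saline array, and Kif13b fell by 0.57 ± 0.08 (adjusted p = 0.00142), while its 2 dimmer probes, at -0.27 ± 0.11 and -0.14 ± 0.08, did not pass. Its relative Kif13a, which moves recycling endosomes and mannose 6-phosphate receptors, had 1.87, 1.91, 1.91 and 1.75 on the LPS arrays, against 2.27, 2.24, 2.12 and 2.19 on the saline arrays. The groups were separate and the decrease was 0.35 ± 0.07 (adjusted p = 0.00536). Kif21b, which pauses microtubule growth, read 5.21, 5.36, 5.24 and 5.11 on the LPS arrays, against 5.83, 5.81, 5.83 and 5.71 on the saline arrays. It fell by 0.57 ± 0.08 (adjusted p = 0.00114) with no overlap. Another probe of Kif21b also fell by 0.57 ± 0.17, but its remaining probe gave 0.33 ± 0.19 and did not pass.

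Kif3a, one motor subunit of heterotrimeric kinesin-2, which drives transport into cilia and along axons, fell while its partner Kif3b rose. Kif3a read 1.21, 1.34, 1.48 and 1.25 on the LPS arrays, against 1.72, 1.54, 1.73 and 1.63 on the saline arrays, a decrease of 0.34 ± 0.09 (adjusted p = 0.0129). Kif3b read -0.41, -0.31, -0.63 and -0.38 on the LPS arrays, against -0.85, -0.76, -1.05 and -0.99 on the saline arrays, an increase of 0.48 ± 0.10 (adjusted p = 0.00542). For both genes the groups were separate, in opposite directions. The accessory subunit Kifap3 differed by 0.03 ± 0.06 (adjusted p = 0.72). Kif3c, an alternative partner of Kif3a, had -0.24 ± 0.17 at its brightest probe and did not pass, while its other tested probe fell by 0.34 ± 0.10 (adjusted p = 0.0198 over all probes). The decrease of Kif3a did not pass when arrays were scaled to their median or with their median signal as covariate.

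The remaining 4 calls were those of Kif28, Kif26a, Kif2a and Kif19a. Kif28 read 3.30, 3.63, 3.55 and 3.44 on the LPS arrays, against 3.65, 3.90, 3.98 and 3.83 on the saline arrays. It fell by 0.36 ± 0.10 (adjusted p = 0.0215) with separate groups, but rests on 1 probe, and 5 probes of other genes contain the run of 16 bases CCTTTAATCCCAGCAC found in it. Kif26a, an atypical kinesin without ATPase activity, had -3.23, -2.79, -1.86 and -2.37 on the LPS arrays, against -1.87, -2.17, -1.29 and -1.50 on the saline arrays. It fell by 0.86 ± 0.31 (adjusted p = 0.0471), and its groups overlapped. Its other probe gave -0.17 ± 0.14 and did not pass. The depolymerase Kif2a had 0.10, 0.08, -0.06 and 0.13 on the LPS arrays, against -0.17, -0.15, -0.31 and -0.15 on the saline arrays, an increase of 0.26 ± 0.08 (adjusted p = 0.0226). The other tested probe of Kif2a gave 0.11 ± 0.14 and did not pass. The mean over its probes, at 0.18, did not pass either. Nor did Kif2a pass with the percentile over probes detected everywhere (0.10) or with the arrays' median signal as covariate (0.15). Kif19a, which limits the length of cilia, had -1.28, -1.04, -1.21 and -1.17 on the LPS arrays, against -1.31, -1.49, -1.53 and -1.42 on the saline arrays, an increase of 0.26 ± 0.08 (adjusted p = 0.0315). The groups of Kif2a and Kif19a did not overlap, yet LPS array 1 of Kif19a was close to saline array 1. Leaving out 1 array ended the call of Kif28 (LPS array 1 or 4, or saline array 2, 3 or 4), Kif26a (LPS array 1, 2 or 4, or saline array 1, 3 or 4), Kif2a (LPS array 1, 2 or 4, or saline array 3) and Kif19a (LPS array 2 or 4, or saline array 2, 3 or 4). Some other settings also ended the calls of Kif28, Kif26a and Kif19a.

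**Figure D5:**
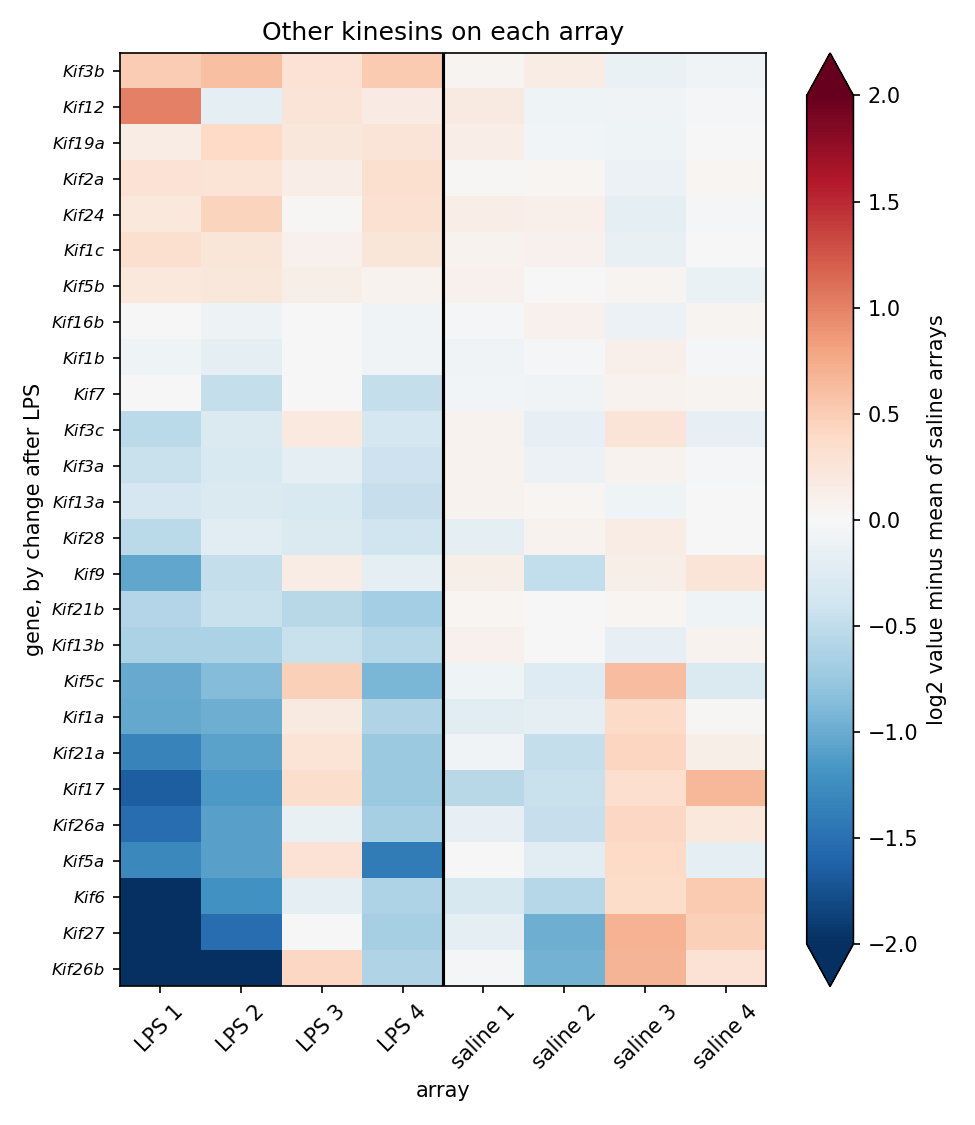
Relative log2 signal of the 26 other kinesins on each array minus the mean of the 4 saline arrays, with LPS arrays on the left and saline arrays on the right, and genes ordered by their change after LPS. Red is higher and blue lower, with colours saturating at -2 and 2. The lowest rows are blue on LPS arrays 1, 2 and 4, near white or red on LPS array 3, and red on saline array 3.

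The kinesins known mainly from neurons had large negative differences that did not pass the test, and LPS array 3 stood apart from the other LPS arrays. Kif5a, a neuronal heavy chain of conventional kinesin-1, read -1.33, -1.13, 0.25 and -1.44 on the LPS arrays, against -0.05, -0.25, 0.35 and -0.23 on the saline arrays. LPS array 3 was higher than 3 of the 4 saline arrays, the other 3 LPS arrays were lower than all of them, and the difference was -0.87 ± 0.36 (adjusted p = 0.0764). Kif5c, the other neuronal heavy chain, read -1.34, -1.21, 0.14 and -1.26 on the LPS arrays, against -0.42, -0.60, 0.28 and -0.62 on the saline arrays, with a difference of -0.58 ± 0.36 (adjusted p = 0.207). Kif1a, which carries synaptic vesicle precursors, read 0.41, 0.45, 1.61 and 0.84 on the LPS arrays, against 1.22, 1.24, 1.81 and 1.46 on the saline arrays, with a difference of -0.61 ± 0.27 (adjusted p = 0.095). LPS array 3 and saline array 3 were the highest of their groups for Kif5a, Kif5c and Kif1a. These arrays share slide column 3 and had the highest median processed signal of their groups, 17.3 and 21.5. Their shared number does not come from the labels, which do not pair the tubes. Kif21a had a difference of -0.72 ± 0.35 and Kif17, a kinesin-2 of dendrites and cilia, one of -0.80 ± 0.45. Without LPS array 3 the changes were -1.26 for Kif5a, -0.93 for Kif5c, -0.87 for Kif1a, -1.05 for Kif21a and -1.18 for Kif17, all past the test. Without LPS array 3 and saline array 3, Kif5a, Kif5c, Kif1a and Kif21a passed. Each slide column held 1 LPS and 1 saline array, and with column as a block Kif5a, Kif5c, Kif1a, Kif21a and Kif17 passed, as did Kif6, Kif26b and Kif27. Within the 4 columns the difference of Kif5a was -1.29, -0.88, -0.10 and -1.21. With the arrays' median signal as a covariate, Kif5c, Kif1a, Kif21a and Kif17 stood at 0.21, 0.031, 0.10 and 0.22 and did not pass.

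LPS array 3 also stood apart from the other LPS arrays in the median of the neuron markers. Over 14 tested neuron markers the median difference from the saline mean was -1.08, -1.09, 0.31 and -0.84 on the LPS arrays, against 0.14, -0.15, 0.23 and -0.03 on the saline arrays. LPS array 3 was the highest LPS array in 10 of these 14 markers and in 15 of the 26 other kinesins, and saline array 3 was the highest saline array in 8 and 12 of them. Of the 14 markers, 2 were higher (Gad1 and Elavl4), 2 lower (Rbfox3 and Map2) and 10 not past. Among all genes, 27.8% were called higher and 21.5% lower. Slc17a7 was not well above background often enough to be tested, and Nefm was well above background on 1 of 4 LPS arrays and 4 of 4 saline arrays. The part of neuronal RNA in the values of these kinesins was not tested. In the mitotic kinesins LPS array 3 was the highest LPS array in 0 of 11 and the lowest in 9 of 11. How this order relates to that of the neuron markers was not tested.

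Of the kinesins of motile cilia, Kif6, Kif9 and Kif27 were low in signal, as were Kif26b (of the same family as Kif26a) and the Hedgehog kinesin Kif7. All of these but Kif7 spread widely between arrays. The ciliary Kif19a, called higher above, did not, with a standard deviation of 0.10 between LPS arrays and 0.10 between saline arrays. Kif6 read -4.11, -3.34, -2.32 and -2.74 on the LPS arrays, against -2.44, -2.70, -1.76 and -1.60 on the saline arrays, with a difference of -1.003 ± 0.41 (adjusted p = 0.0709). A dimmer RefSeq probe of Kif6 was called lower, at -1.18 ± 0.38 (adjusted p = 0.0322 over all probes), with 2 of 4 LPS arrays and 4 of 4 saline arrays well above background, and the mean over its probes also passed, at -1.33. Kif9 differed by -0.39 ± 0.27, and Kif27 by -1.26 ± 0.62 with signal well above background on 1 of 4 LPS arrays and 3 of 4 saline arrays. Kif26b differed by -1.28 ± 0.68, with 2 of 4 LPS arrays and 4 of 4 saline arrays well above background. An Ensembl probe of Kif26b was called lower, at -0.62 ± 0.14 (adjusted p = 0.00869 over all probes). That probe was well above background on 0 of 4 LPS arrays and 4 of 4 saline arrays, and so could be tested only through the saline group. At the brightest probes of Kif6, Kif9, Kif27 and Kif26b the groups overlapped. Kif7, which acts at the tip of the primary cilium in Hedgehog signalling, differed by -0.24 ± 0.13 (adjusted p = 0.161). Of 10 ciliated cell markers, 2 were lower and 8 not past, a share lower near the 21.5% of all genes. The median of these markers stood at -2.04, -1.44, 0.00 and -0.62 on the LPS arrays, against -0.15, -0.80, 0.46 and 0.51 on the saline arrays. Their part in the values of Kif6, Kif9 and Kif27 was not tested.

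The broadly expressed transport motors did not pass the test. Kif5b, the kinesin-1 heavy chain of most tissues, had a difference of 0.15 ± 0.08 (adjusted p = 0.125), Kif1b, a carrier of mitochondria and synaptic vesicle precursors, -0.09 ± 0.07 (adjusted p = 0.333), and Kif16b, a motor of early endosomes, -0.05 ± 0.07 (adjusted p = 0.609). Another RefSeq probe of Kif1b fell by 0.30 ± 0.07 (adjusted p = 0.0107 over all probes), and its 3 remaining probes did not pass. Kif1b was also called lower under quantile normalization (-0.28), and Kif1b and Kif16b when the percentile was taken over probes detected everywhere (-0.24 and -0.20). Kif1c, which moves integrin-containing vesicles and dense-core vesicles, read 2.78, 2.70, 2.54 and 2.71 on the LPS arrays, against 2.54, 2.54, 2.32 and 2.45 on the saline arrays. Its groups did not overlap, by a narrow gap, and its difference of 0.22 ± 0.08 had an adjusted p of 0.0577. Kif1c passed under normexp background correction (0.18), an intensity trend with robust prior (0.22), array weights (0.24) and slide column as a block (0.22). It also passed without LPS array 3 (0.27) and without LPS array 3 and saline array 3 together (0.22). Kif5b passed with array weights (0.23), but stood at -0.15 under quantile normalization and did not pass. Kif12 differed by 0.31 ± 0.23 and did not pass.

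Kif24 gave different answers from its probes. Kif24 is a depolymerase of the mother centriole that restrains cilium formation in cycling cells. The brightest probe, for an Ensembl transcript, differed by 0.24 ± 0.11 (adjusted p = 0.111). The probe for its RefSeq transcript read -0.76, -0.86, -1.26 and -0.73 on the LPS arrays, against -2.04, -1.84, -2.14 and -2.11 on the saline arrays. These groups were far apart, and that probe rose by 1.13 ± 0.13 (adjusted p = 0.000837 over all probes), an increase within the range of the mitotic kinesins. Kif1a likewise had a dimmer probe at 0.10 ± 0.22 against -0.61 at the brighter one, and neither passed.

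Several kinesin families hold both mitotic and other members. In the kinesin-13 family of depolymerases, Kif2c rose by 1.46 and Kif2a by 0.26 at its brightest probe. Kif24, of the same family, did not pass at its brightest probe (0.24), while its RefSeq probe rose by 1.13. In kinesin-4, Kif4 rose by 0.99, Kif21b fell by 0.57, and Kif7, Kif21a and Kif27 did not pass. In kinesin-3, Kif14 rose by 0.83 while Kif13a, Kif13b and Kif28 fell and the other 4 did not pass. All 3 kinesin-8 genes rose, the mitotic Kif18a and Kif18b by 0.87 and 0.77 and the ciliary Kif19a by 0.26. The 3 kinesin-6 genes, all of them mitotic, rose, and none of the 3 kinesin-1 genes passed. Differences between family members were not tested.

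Adaptors and light chains of the transport kinesins mostly did not pass. Of 18 listed partners 1 was higher and 4 were lower, with a median of -0.12, against 27.8% higher and 21.5% lower among all genes, so that the share lower was near that of all genes. Fez1, an adaptor of kinesin-1, fell by 1.40 ± 0.20 (adjusted p = 0.00139), Plekhm2 (SKIP), which links kinesin-1 to lysosomes, fell by 0.39 ± 0.07 (adjusted p = 0.00383) and the light chain Klc4 fell by 0.34 ± 0.09 (adjusted p = 0.0174). Spag9, a scaffold that binds kinesin-1 and stress kinases, fell by 0.20 ± 0.06, and Madd, an adaptor of Kif1a and Kif1b, rose by 0.24 ± 0.06. The light chains Klc1, Klc2 and Klc3 had differences of 0.02 ± 0.08, -0.17 ± 0.06 and -0.68 ± 0.70 and did not pass, nor did the kinesin-binding protein Kifbp at -0.09 ± 0.06.

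Markers of several other cell types also moved between the groups, and their part in any kinesin value was not tested. Among all genes tested, 27.8% were called higher and 21.5% lower, and the share of myeloid markers lower was near the latter. Of 12 myeloid markers 5 were higher and 3 lower, and their median on the LPS arrays was -0.06 to 0.17, against -0.17 to 0.12 on the saline arrays. Astrocyte markers were lower in 8 of 9 (median -0.89 to -0.50 on the LPS arrays, against -0.20 to 0.15 on the saline arrays), oligodendrocyte markers in 6 of 10 (-0.97 to -0.29 in LPS, against -0.08 to 0.18 in saline) and endothelial markers in 4 of 6 (-0.79 to -0.36 in LPS, against -0.33 to 0.27 in saline). Of 6 neural progenitor markers, whose cells also divide, 1 was higher and 2 were lower, with medians of -1.45 to 0.26 on the LPS arrays, against -0.23 to 0.35 on the saline arrays. Neutrophil and monocyte markers were higher in 5 of 11 (0.05 to 0.79 on the LPS arrays, against -0.43 to 0.72 on the saline arrays) and lymphocyte markers in 4 of 7 (0.24 to 1.09 in LPS, against -0.28 to 0.13 in saline). The progenitor marker called higher was Nes, at 3.69, 3.70, 3.33 and 3.54 on the LPS arrays, against 3.12, 3.21, 3.15 and 3.15 on the saline arrays, with LPS arrays 1 and 2 above LPS arrays 3 and 4, as in the mitotic kinesins.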

How the data were processed

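The deposited scanner files give intensity values of 1-colour arrays. Per the file headers, the software was Agilent Feature Extraction 12.0.3.1, and its processed signal had been background-subtracted with spatial detrending and surrogate values for dim spots. Per the labels, 50 ng of RNA was labelled with Cy3. The authors' deposited table of log2 values served as an alternative. Its values matched the scanner values after a shift by array percentile and centring of each probe, and how they were made is not stated in those sources.

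Control and outlier spots were left out and spots of a probe were averaged. From the log2 of the processed signal the 75th percentile of its array was subtracted. A probe had to be well above background on 4 or more of the 8 arrays, and the brightest such probe stood for its gene. The LPS and saline groups were compared over 22509 genes with limma 3.58.1 (lmFit, eBayes; R 4.3.3), Benjamini-Hochberg adjustment and a threshold of 0.05, and this fit was tested on simulated data. All 8 arrays shared 1 slide and 1 scan, and their number limits the precision. The tubes are separate pools of 2 mice. Promoter letters come from RefSeq tables of GRCm38.p6, and figures were drawn with matplotlib 3.10.9. Every Kif gene could be named, with up to 3 risen and 3 fallen genes of each other list and a set of named partners. The mitotic kinesins and all gene lists were chosen with earlier results of these data known. Alternatives covered scaling, background, filters, probe choice, variance model, slide position and each array left out.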

Additional observations from a re-analysis of the deposited data

Results flagged for a closer look

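In 74 groups of 4 arrays, 1 for each kinesin and treatment, 2 had an array far from the other 3 by Dixon's ratio of its gap to the whole range, which was above its critical value for 4 arrays. About 1 group in 20 is picked up this way by chance. For Kif5c the ratio was 0.906 among the LPS arrays, where LPS array 3 read 0.14 and the others between -1.34 and -1.21. For Kif2a the ratio was 0.897 among the saline arrays, where saline array 3 read -0.31 and the others between -0.17 and -0.15.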

How the results depend on the processing

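The 11 mitotic kinesins were higher under all 25 alternatives, 2 of them added after seeing the data, with medians between 0.70 and 1.10 (0.82 to 0.97 with 1 array left out). For the other kinesins, 1 was lower when arrays were scaled to their median and 1 was higher when the percentile was taken over probes detected everywhere; these scalings put the median of all genes at 0.24 and -0.13. Array weights gave 6 higher and 16 lower, slide column as a block 5 and 14, and a covariate for the arrays' median signal 1 and 3, with the median turning to 0.051. Leaving out 1 array gave 1 to 5 higher (1 without LPS array 2, LPS array 4 or saline array 3, and 5 without LPS array 3) and 4 to 15 lower (15 without LPS array 3). Without LPS array 3 and saline array 3, 10 were lower. No called kinesin turned its direction. Among those not past the test, Kif16b became 0.17 and Kif1b 0.13 scaled to the median, Kif5b -0.0001 over probes detected everywhere and -0.15 under quantile normalization, and Kif7 0.042 under normexp. Kif1b was called lower over probes detected everywhere (-0.24) and under quantile normalization (-0.28), and Kif16b in the first of these (-0.20). With the median-signal covariate, Kif17 became 0.22, Kif1a 0.031, Kif21a 0.10, Kif26b 0.22, Kif27 0.15, Kif3c 0.10, Kif5c 0.21 and Kif9 0.13. The causes were not tested. Across all genes 7475 to 14974 changed. The labels give no replicate numbers that pair the tubes; the slide column block joins 1 LPS and 1 saline array per column. Dim probes such as those of Kif26b and Kif27 limit what these arrays show, and probes of one gene can differ, as for Kif24.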

Other observations

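Dynein, the motor that walks toward microtubule minus ends, and its cofactor dynactin were read beside the kinesins. Of 25 tested genes of the list, 8 were higher and 2 lower in LPS with limma, with a median change of 0.14, against 27.8% higher and 21.5% lower among all genes, so that the share higher was near that of all genes. The light chain Dynll1 rose by 0.98 ± 0.10 (adjusted p = 0.00049), the dynactin filament protein Actr1a by 0.50 ± 0.10 (adjusted p = 0.00439) and the light chain Dynlrb1 by 0.45 ± 0.11 (adjusted p = 0.0119). The intermediate chain Dync1i1, known mainly from neurons, fell by 0.75 ± 0.21 (adjusted p = 0.0187), and the light intermediate chain Dync1li2 fell by 0.25 ± 0.07 (adjusted p = 0.0156).

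Of the remaining Kifc genes, which the name rule leaves out, Kifc2, known from dendrites and axons, fell by 0.77 ± 0.17 (adjusted p = 0.00687). Kifc3 had a difference of 0.19 ± 0.08 (adjusted p = 0.081).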
